A study of Mus musculus with 8 samples.

Results

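The proteasome genes described here are the mouse genes whose symbol is Psma, Psmb, Psmc, Psmd, Psme, Psmf or Psmg followed by a number alone. They were chosen by symbol, with no use of their values. The RefSeq gene table holds 48 such symbols, and 47 of them were measured, among 22180 genes in all. Psma4 was the member not measured, because both of its probe sets also carry the symbol AY074887. The 47 genes were read by 50 probe sets with 1 symbol each, 44 genes by 1 probe set and 3 genes by 2, which were averaged.

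Hearts of male C57BL6/J mice (labelled C57BL6JRj), wild type and 8 to 10 weeks old, were compared after a single intraperitoneal injection. The digoxin group (5 arrays) received the drug at 1 mg/kg, and the vehicle group (3 arrays) received the co-solvent alone, made of propylene glycol (40%) and ethanol (10%) with 0.3% sodium phosphate and 0.08% citric acid. Injections were given at ZT5 and hearts were taken at ZT9, with ZT0 at lights-on, so 1 dose and 1 time were examined. The series design text counts 4 samples in a group it calls Sham, whereas the series holds 3 vehicle arrays, all of them analysed here. Digoxin is a cardiac glycoside that blocks the Na/K-ATPase, and the rodent form of its main subunit is known to bind the drug weakly, which limits mice as a model of its action in human hearts. RNA of the pulverised heart was read on Affymetrix Mouse Gene 2.0 ST arrays, so all cell types of the organ were measured together. The labels do not say that each array is a different animal, and p-values measure the spread between these arrays.

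Expression is given on a log2 scale that the authors had centred probe set by probe set. A value of 0 is therefore a reference point of that probe set, not an absence of RNA, and a value can be set against other arrays for the same gene but never against another gene's level. The same limit holds for markers of the tissue, whose levels cannot be read. Each array has a number in the labels, and all vehicle arrays come before all digoxin arrays in that numbering, so effects of treatment and of that order cannot be told apart.

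The proteasome is the protease that degrades most ubiquitin-tagged proteins of the nucleus and cytosol. Its barrel-shaped core particle is built of rings of alpha subunits, which form the gate, and beta subunits, some of which carry the proteolytic sites. The regulatory particle caps the core. Its base holds a ring of ATPases that unfold substrates and thread them into the core, and its lid holds the enzyme that removes the ubiquitin chain. Other activators can replace the cap, and dedicated chaperones assemble the core and the base. In immune cells and under interferon the catalytic beta subunits are exchanged for inducible ones, which gives the immunoproteasome. In heart muscle the system is known for the turnover of sarcomeric proteins and of misfolded proteins in long-lived cells. When proteasome activity falls, the transcription factor NRF1, encoded by Nfe2l1, is known to raise the subunit genes together.

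None of the 47 proteasome genes passed the test between digoxin and vehicle hearts. Changes are given throughout as the digoxin mean minus the vehicle mean on the log2 scale. The lowest adjusted p was 0.182 in limma, for the lid gene Psmd14, against a threshold of 0.05. Among all genes tested, 0.947% passed as higher (210 genes) and 0.415% as lower (92 genes). At an unadjusted p below 0.05 in limma, 4 members were higher (Psmd14, Psmd4, Psmc1 and Psmf1) and 1 was lower (Psmc3), where 6.32% of all genes were higher and 5.99% lower by the same rule. In 2 members, Psmd4 and Psmc1, every digoxin array lay above every vehicle array, and in Psmc3 every digoxin array lay below. Among all genes such a separation was seen in 4.4% with digoxin higher and in 3.76% with digoxin lower. These shares of the members are near those of all genes.

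The changes were also small. For 46 of the 47 genes (97.9%) the 95% interval of the change lay within 1.5-fold in either direction, as it did for 96.1% of all genes. The exception was Psme2, whose interval ran from -0.69 to 0.32. The largest positive change was that of Psmd14, at 0.29, and the largest negative change was that of Psme2, at -0.18. Across the digoxin arrays the SD of a member had a median of 0.0753, and that of all genes 0.0756. It was lowest in Psma6, an alpha ring gene (0.0157), and highest in Psmb11, a thymus subunit gene (0.24).

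**Figure D1:**
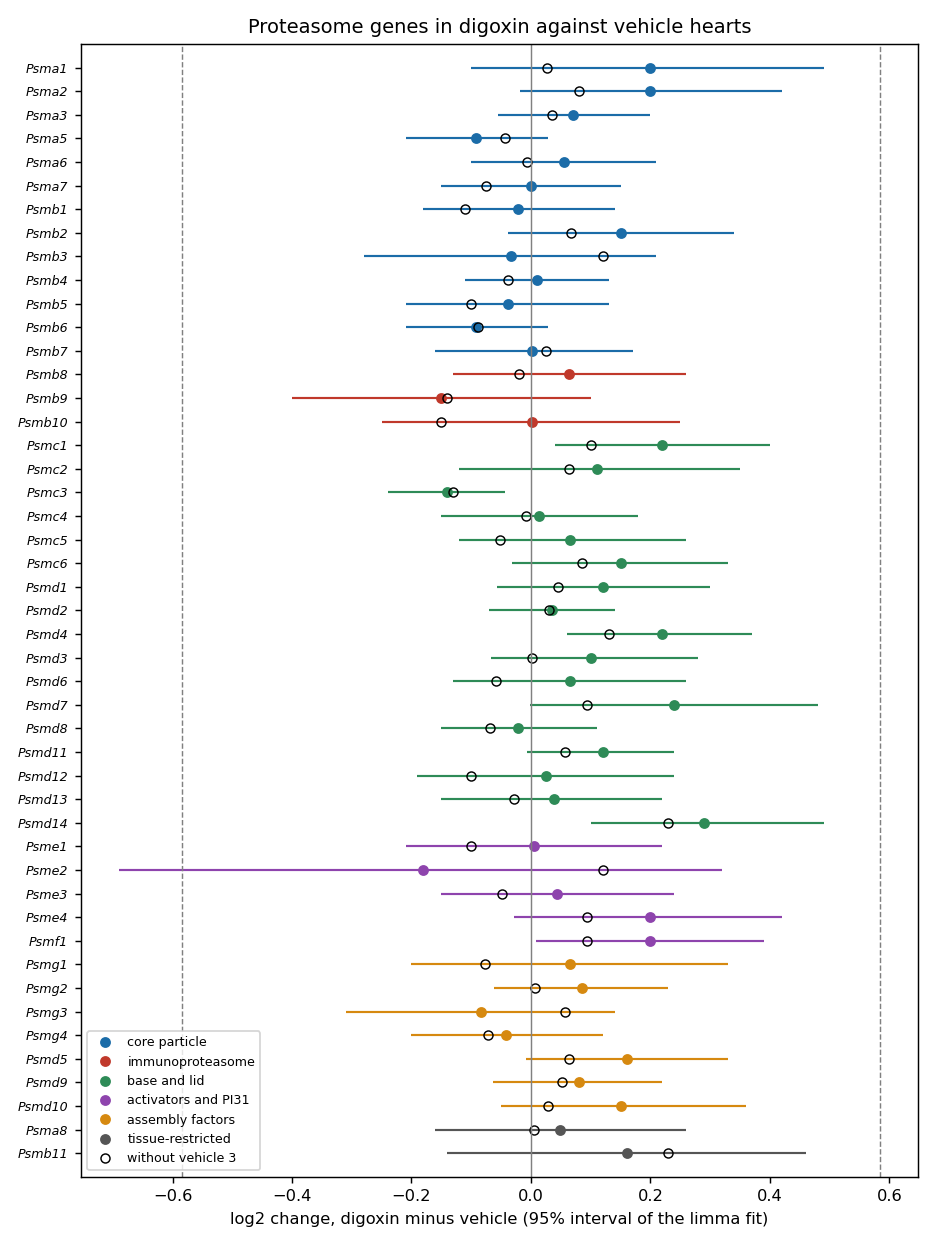
Log2 change between digoxin and vehicle hearts for each of the 47 proteasome genes, coloured by subcomplex, with the 95% interval of the limma fit as a bar and the change without vehicle replicate 3 as an open circle. Dashed lines mark 1.5-fold. All intervals but that of Psme2 lie between the dashed lines, and most open circles lie to the left of the filled ones.

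The direction of the means leaned upward with all arrays, and much less so without vehicle replicate 3. With all 8 arrays, 36 members had a higher mean in digoxin hearts and 11 a lower one, so 76.6% were higher, where 44.4% of all genes were higher. The median change was 0.063 over the members and -0.011 over all genes. Vehicle 3 was the lowest of the 8 arrays for 31 members (66.0%), where it was the lowest for 25.6% of all genes. It was the highest for 4 members, Psme2, Psmb3, Psmg3 and Psma5 (8.51%), where it was the highest for 28.8% of all genes. Its values were also the most spread, with an interquartile range over all probe sets of 0.216 against 0.0792 to 0.115 on the other arrays. Without it, 26 members were higher and 21 lower (55.3% higher, against 48.2% of all genes), and the median change was 0.006. The change turned sign without it in 16 members, from higher to lower in 13 and from lower to higher in 3 (Psmb3, Psme2 and Psmg3). At an unadjusted p below 0.05 without it, 3 members were higher and 1 lower, beside 5.28% and 7.33% of all genes. What set vehicle 3 apart was not tested.

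The subcomplexes followed this array to different extents. The median over the 17 base and lid genes was -0.29 on vehicle 3, -0.021 and 0.00 on vehicle 1 and 2, and between -0.034 and 0.019 on the digoxin arrays. The median over the 13 core genes was -0.14 on vehicle 3, -0.024 and 0.044 on the other vehicle arrays, and between -0.043 and 0.023 on the digoxin arrays. Assembly factors stood at -0.23, and the activators with PI31 at -0.26, on vehicle 3. Base and lid genes had a median change of 0.10 with all arrays, with 15 of 17 means higher, and of 0.031 without vehicle 3, with 10 of 17 higher. The median change of the core genes was 0.001 with all arrays (8 of 13 higher) and -0.007 without vehicle 3 (6 of 13 higher). For the 5 activators and PI31 these medians were 0.043 (4 higher) and 0.093 (3 higher), and for the 7 assembly factors they were 0.08 and 0.028 (5 higher in both). The 3 immunoproteasome genes had a median change of 0.002 (2 higher), and of -0.14 without vehicle 3 (0 higher). The medians describe these genes, and differences between subcomplexes were not tested.

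**Figure D2:**
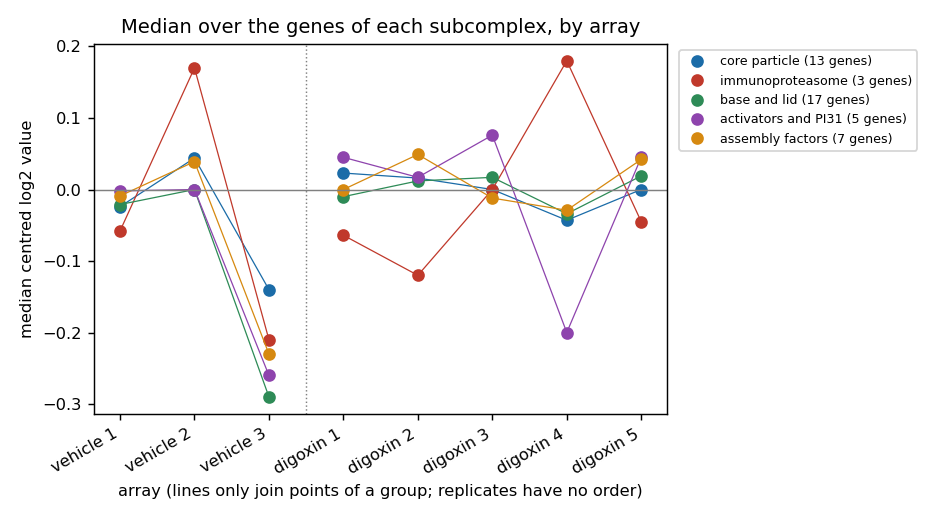
Median centred log2 value over the measured genes of each subcomplex on each array, with vehicle arrays to the left of the dotted line and digoxin arrays to the right. Vehicle 3 is the lowest array for the core, base and lid, activator, assembly and immunoproteasome medians. Digoxin 4 is the highest for the median of the 3 immunoproteasome genes, at 0.18, close to vehicle 2, at 0.17.

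Alpha ring genes encode the outer rings of the core, whose tails close the entrance to the chamber. Of the 6 measured, 5 had a higher mean in digoxin hearts, and the median change was 0.063 (0.01 without vehicle 3). Psma2 had the largest change of the ring, and its values were 0.12, 0.19, -0.059, 0.00 and 0.020 in the 5 digoxin hearts and -0.076, 0.026 and -0.39 in the 3 vehicle hearts. The groups overlapped, and vehicle 3 lay well below the rest. The change was 0.20 (95% interval -0.018 to 0.42, adjusted p = 0.448 in limma), and 0.08 without vehicle 3. Psma5 had the lowest, with 0.020, -0.026, 0.051, -0.030 and -0.090 in digoxin and -0.004, 0.063 and 0.17 in vehicle hearts. Its change was -0.092, and vehicle 3 was here the highest array. The 2 probe sets of Psma5 differed, at 0.011 and -0.19, and neither passed. Psma1 stood at 0.20, Psma3 at 0.07, Psma6 at 0.055 and Psma7 at 0.00, and without vehicle 3 these changes were 0.027, 0.035, -0.007 and -0.075.

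Structural beta subunits build the inner rings and carry no active site. Of the 4, Psmb2 had the highest change and Psmb3 the lowest. Psmb2 gave 0.22, 0.14, 0.00, -0.043 and 0.14 in digoxin hearts and 0.074, -0.026 and -0.22 in vehicle hearts, with a change of 0.15 (95% interval -0.039 to 0.34, and 0.067 without vehicle 3). The values of Psmb3 were 0.065, 0.074, 0.001, -0.044 and -0.12 in digoxin hearts and -0.11, -0.14 and 0.34 in vehicle hearts, with a change of -0.033. Both pairs of groups overlapped, and vehicle 3 was the lowest array for Psmb2 and the highest for Psmb3. Without vehicle 3 the change of Psmb3 was 0.12. Psmb1 stood at -0.021 and Psmb4 at 0.01, and at -0.11 and -0.038 without vehicle 3.

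The constitutive catalytic subunits are Psmb5, with chymotrypsin-like activity, Psmb6, with caspase-like activity, and Psmb7, with trypsin-like activity. For Psmb5 the digoxin hearts gave -0.16, -0.087, -0.065, -0.047 and 0.11 and the vehicle hearts -0.024, 0.12 and -0.14, a change of -0.038 (95% interval -0.21 to 0.13). Psmb6 gave -0.011, 0.065, -0.033, -0.042 and 0.00 against -0.014, 0.18 and 0.094, a change of -0.092 (95% interval -0.21 to 0.028). Digoxin values of Psmb7 were 0.026, 0.016, -0.044, -0.21 and -0.002, and vehicle values were -0.18, 0.044 and 0.005, a change of 0.001 (95% interval -0.16 to 0.17). The groups overlapped in each of these genes, and vehicle 3 was neither the lowest nor the highest array in any. Vehicle 2 was the highest array for all of them.

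The inducible catalytic subunits Psmb8 (LMP7), Psmb9 (LMP2) and Psmb10 (MECL-1) take the places of Psmb5, Psmb6 and Psmb7 in the immunoproteasome, which favours peptides that fit MHC class I molecules. Psmb8 and Psmb9 lie on chromosome 17 in the MHC region, with the peptide transporter gene Tap1 as the single protein-coding gene between them in the RefSeq annotation. Their promoter windows from RefSeq (GRCm38.p6, 5′ to 3′ in the direction of the gene) are shown because these genes are known targets of interferon signalling and because both carried a digoxin array that stood apart. The windows are chr17:34197945-34198244 on the plus strand for Psmb8 and chr17:34187281-34187580 on the minus strand for Psmb9. Capitals mark a match to the gamma-activated site in Psmb8 and to the CCAAT box, on the other strand, in Psmb9.
Psmb8: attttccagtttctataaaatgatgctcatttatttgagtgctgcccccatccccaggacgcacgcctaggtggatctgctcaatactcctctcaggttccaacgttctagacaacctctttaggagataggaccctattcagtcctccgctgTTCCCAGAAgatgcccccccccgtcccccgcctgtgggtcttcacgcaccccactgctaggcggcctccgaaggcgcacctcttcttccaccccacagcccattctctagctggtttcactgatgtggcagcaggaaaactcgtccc
Psmb9: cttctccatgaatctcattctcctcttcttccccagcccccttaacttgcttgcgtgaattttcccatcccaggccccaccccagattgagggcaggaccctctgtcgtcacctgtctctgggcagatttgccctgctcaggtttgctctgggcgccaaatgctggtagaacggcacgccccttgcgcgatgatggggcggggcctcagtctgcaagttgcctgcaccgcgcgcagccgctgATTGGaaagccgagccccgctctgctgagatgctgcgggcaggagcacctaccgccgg

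The Psmb9 window shares 275 bases with that of Tap1, which starts 226 bases away on the opposite strand. The 2 genes point away from each other, and the shared stretch covers the bases between their starts and reaches past both starts. No match to the interferon-stimulated response element core was found in either window, which says only that these letters are not in these 300 bases.

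Psmb8 values were 0.00, -0.038, 0.002, 0.18 and -0.041 in digoxin hearts and -0.078, 0.16 and -0.21 in vehicle hearts. The change was 0.063 (95% interval -0.13 to 0.26, adjusted p = 0.811 in limma), and -0.02 without vehicle 3. Digoxin 4 was the highest array and vehicle 3 the lowest, and vehicle 2 lay close to digoxin 4. Psmb9 values were -0.064, -0.14, -0.18, 0.34 and -0.045 in digoxin and 0.079, 0.17 and 0.15 in vehicle hearts. Here 4 digoxin hearts lay below all vehicle hearts, and digoxin 4 lay above them. The change was -0.15 (95% interval -0.4 to 0.1, adjusted p = 0.624 in limma). It was -0.24 without digoxin 4 (adjusted p = 0.0943 in limma) and -0.23 without digoxin 4 and vehicle 3. Digoxin 4 was the highest array for Psmb9, so leaving it out lowers the digoxin mean by design. Psmb10 gave -0.12, -0.12, 0.00, -0.060 and -0.10 in digoxin and -0.058, 0.19 and -0.38 in vehicle hearts, a change of 0.002 (95% interval -0.25 to 0.25). For this gene the vehicle hearts spanned the digoxin hearts, with vehicle 3 lowest and vehicle 2 highest, and the change was -0.15 without vehicle 3.

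To ask whether the inducible subunits shifted against the constitutive ones they replace, the value of the constitutive gene was subtracted on each array, for 3 pairs. The difference Psmb8 minus Psmb5 was 0.071 ± 0.142 (SD, n = 5) after digoxin and -0.03 ± 0.0556 (SD, n = 3) after vehicle, and the exact two-sided permutation p was 0.286. Psmb9 minus Psmb6 averaged -0.012 ± 0.23 (SD, n = 5) in digoxin and 0.045 ± 0.0524 (SD, n = 3) in vehicle hearts (exact permutation p = 0.75). Psmb10 minus Psmb7 averaged -0.037 ± 0.13 (SD, n = 5) and -0.037 ± 0.301 (SD, n = 3) in the same order (exact permutation p = 1.0). Adjusted over the 3 pairs, the exact permutation p values were 0.857, 1.0 and 1.0, and the smallest p that 56 assignments of these arrays allow is 0.0179. With digoxin 4 left out, the change in Psmb9 minus Psmb6 was -0.16 (exact permutation p = 0.0286, not adjusted over the pairs). That p is the lowest possible with 7 arrays. With digoxin 4 and vehicle 3 both left out, the change was -0.15 (exact permutation p = 0.133, with 0.0667 the lowest possible). Digoxin 4 was singled out after its values were seen, and it held the highest value of this difference, 0.38. Leaving it out lowers the digoxin mean by design, so no conclusion is drawn from these 2 p values.

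Digoxin 4 also differed from the other arrays in markers of T cells and of the thymus, a lymphoid organ. In this bulk RNA a change in the number of cells of a type and a change in RNA per cell cannot be told apart. A list of thymocyte and T cell genes, chosen after the data were seen, had 10 of 12 genes measured, and 9 of them were highest on digoxin 4, where 11.6% of all genes were. The gene that was not, Ptcra, stood at -0.045 on digoxin 4 and between -0.15 and 0.20 elsewhere. The list mean was 1.82 on digoxin 4 and between -0.11 and 0.12 on the other arrays. The T cell receptor complex gene Cd3e stood at 2.85 on digoxin 4 and between -0.25 and 0.26 elsewhere, Cd8b1 at 2.31 and between -0.19 and 0.26, and Rag2, needed for receptor gene rearrangement, at 1.05 and between -0.069 and 0.078. Of 4 thymic epithelium genes, also chosen after the data were seen, 3 were highest on digoxin 4. Ctsl was so only narrowly, at 0.28 against 0.27 on digoxin 1. The list mean was 0.71 on digoxin 4 against -0.077 to 0.077 elsewhere, and Prss16 contributed most to it. Prss16, a thymus-specific serine protease gene, stood at 2.13 on digoxin 4 and between -0.048 and 0.20 elsewhere, whereas Foxn1, the defining factor of thymic epithelium, stood at -0.08 there and between -0.083 and 0.31 elsewhere. The leukocyte list had a mean of 0.63 on digoxin 4 and of -0.14 to 0.16 elsewhere, with 4 of 9 genes highest there. Cd3e and the pan-leukocyte gene Ptprc were then left out, after the data were seen, because they exceeded the other arrays most on digoxin 4. The mean of the other 7 leukocyte genes was 0.18 on digoxin 4, between -0.09 and 0.039 on the other digoxin arrays, and 0.19 on vehicle 1. Leaving those genes out lowers the value on digoxin 4 by design, so no conclusion is drawn from it. The part of these cells in the immunoproteasome values was not tested, and Psmb9 is given above with and without that array.

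Psmb11 encodes the catalytic subunit of the thymoproteasome, which is made in the cortical epithelium of the thymus, and Psma8 an alpha subunit of the testis. Psmb11 lies next to Psmb5 on chromosome 14, with no protein-coding gene between them in the RefSeq annotation. Psmb11 values were 0.17, 0.070, 0.073, 0.53 and -0.12 in digoxin and -0.028, -0.13 and 0.14 in vehicle hearts, with digoxin 4 the highest array. The change was 0.16 (95% interval -0.14 to 0.46), and 0.059 without digoxin 4. Psma8 gave 0.014, -0.002, 0.00, -0.089 and 0.34 in digoxin and -0.007, 0.10 and -0.085 in vehicle hearts, a change of 0.049, with digoxin 5 as the highest array. Whether either gene was expressed in these hearts cannot be read from centred values.

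**Figure D3:**
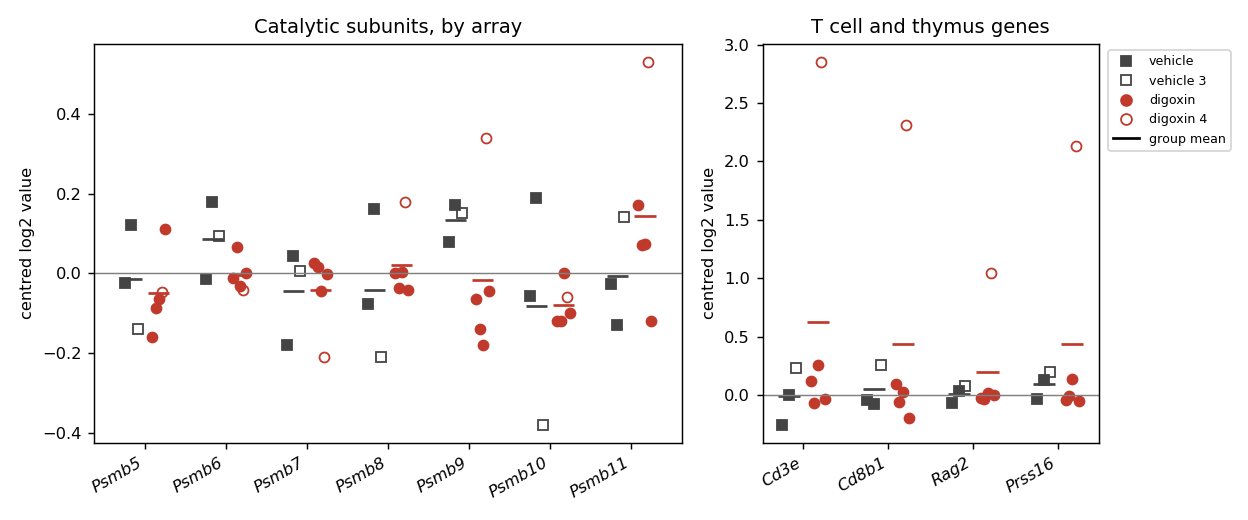
Left, centred log2 values of the constitutive (Psmb5, Psmb6, Psmb7), inducible (Psmb8, Psmb9, Psmb10) and thymus (Psmb11) catalytic subunit genes on each array, with group means as bars; right, T cell and thymus genes on the same arrays, on a wider axis. Digoxin 4, the open circle, is the highest array for Psmb8, Psmb9 and Psmb11 and for all 4 genes on the right. Those 4 were picked from the T cell and thymus lists after the data were seen. Ptcra and Foxn1 of the same lists, not shown, were not highest on digoxin 4.

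The base and lid of the regulatory particle held the 4 members with the smallest p values. The 3 with the largest positive changes at an unadjusted p below 0.05 in these subcomplexes were Psmd14, Psmd4 and Psmc1. Psmd14 encodes the metalloprotease of the lid that cuts ubiquitin chains from substrates, Psmd4 a ubiquitin receptor of the base, and Psmc1 an ATPase of the base ring. Their RefSeq promoter windows (GRCm38.p6, 5′ to 3′ in the direction of the gene) are shown because all of them hold the CCAAT box. This common promoter element, which the capitals mark on either strand, was in 35.9% of members with a window and in 41.1% of all genes. Holding it therefore does not set these genes apart. In Psmd4 the capitals also mark a match to the interferon-stimulated response element core, which begins 80 bases before the start. The windows are chr2:61711444-61711743 on the plus strand for Psmd14, chr3:95042565-95042864 on the minus strand for Psmd4 and chr12:100109952-100110251 on the plus strand for Psmc1.
Psmd14: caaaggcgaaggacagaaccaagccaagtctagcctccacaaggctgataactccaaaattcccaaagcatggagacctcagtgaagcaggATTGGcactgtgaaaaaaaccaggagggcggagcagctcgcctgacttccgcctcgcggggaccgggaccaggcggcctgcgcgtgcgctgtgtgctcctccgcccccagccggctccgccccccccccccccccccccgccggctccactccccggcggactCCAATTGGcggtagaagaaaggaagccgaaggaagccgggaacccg
Psmd4: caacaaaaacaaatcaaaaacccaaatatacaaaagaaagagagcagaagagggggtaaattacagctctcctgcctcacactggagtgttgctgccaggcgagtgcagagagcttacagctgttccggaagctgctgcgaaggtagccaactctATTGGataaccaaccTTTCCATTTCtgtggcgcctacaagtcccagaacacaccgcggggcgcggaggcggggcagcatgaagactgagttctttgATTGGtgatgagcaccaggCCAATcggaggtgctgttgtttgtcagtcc
Psmc1: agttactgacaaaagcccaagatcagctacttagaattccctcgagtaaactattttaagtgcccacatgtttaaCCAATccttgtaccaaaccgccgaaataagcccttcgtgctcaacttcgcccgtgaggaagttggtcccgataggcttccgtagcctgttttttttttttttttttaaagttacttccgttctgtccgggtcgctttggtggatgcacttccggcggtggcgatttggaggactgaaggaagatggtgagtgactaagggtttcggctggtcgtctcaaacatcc

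In Psmd14 the digoxin hearts stood at 0.14, 0.21, 0.001, -0.004 and 0.10 and the vehicle hearts at -0.28, 0.00 and -0.33. Vehicle 1 and 3 lay below all digoxin hearts, and vehicle 2 lay within their range. The means were 0.09 ± 0.0935 (SD, n = 5) and -0.20 ± 0.179 (SD, n = 3), a change of 0.29 with an SE of 0.0849 (95% interval 0.1 to 0.49, adjusted p = 0.182 in limma). The adjusted p was lowest without vehicle 2, at 0.0594, and highest without digoxin 2, at 0.35, and the change without vehicle 3 was 0.23.

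Psmd4 values were 0.049, 0.00, 0.037, 0.016 and 0.083 in digoxin and -0.14, -0.036 and -0.36 in vehicle hearts. All digoxin hearts lay above all vehicle hearts, by a narrow margin over vehicle 2. The change was 0.22 with an SE of 0.0687 (95% interval 0.06 to 0.37, adjusted p = 0.233 in limma), and 0.13 without vehicle 3. For Psmc1, the digoxin hearts gave 0.033, 0.00, -0.002, -0.007 and -0.031 and the vehicle hearts -0.12, -0.093 and -0.46. The digoxin hearts lay close together, above all vehicle hearts. The change was 0.22 with an SE of 0.0799 (95% interval 0.04 to 0.40, adjusted p = 0.299 in limma), and 0.10 without vehicle 3.

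Psmc3, another ATPase of the same ring, lay on the other side. Its values were -0.16, -0.10, -0.086, -0.067 and -0.15 in digoxin and -0.021, 0.064 and 0.038 in vehicle hearts, so all digoxin hearts lay below all vehicle hearts. The change was -0.14 with an SE of 0.0426 (95% interval -0.24 to -0.043, adjusted p = 0.209 in limma), and -0.13 without vehicle 3, so that array moved this gene little. The other ATPase genes stood at 0.11 (Psmc2), 0.014 (Psmc4), 0.065 (Psmc5) and 0.15 (Psmc6), and without vehicle 3 at 0.064, -0.008, -0.051 and 0.086. Psmc2 averaged 2 probe sets that differed, at -0.008 and 0.23, and neither passed.

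**Figure D4:**
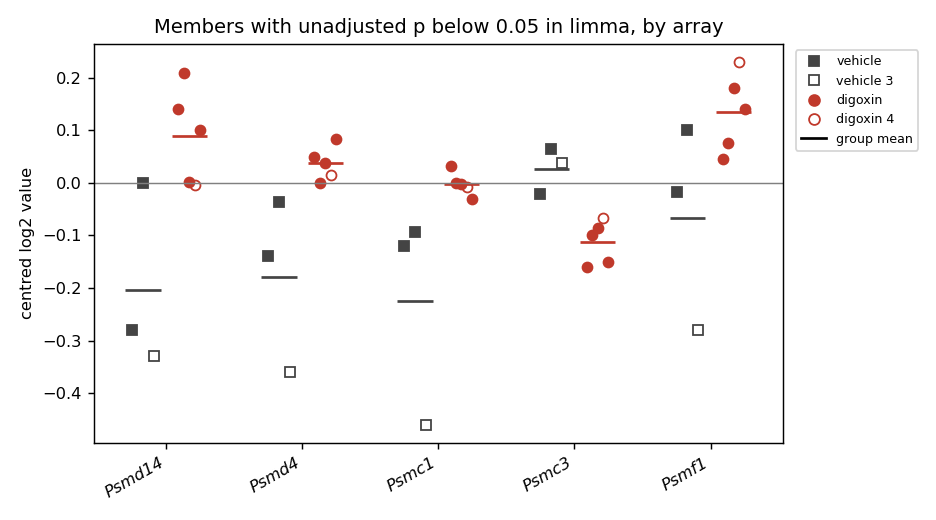
Centred log2 values on each array of the 5 proteasome genes with an unadjusted p below 0.05 in limma, with group means as bars. Vehicle 3, the open square, is the lowest array for Psmd14, Psmd4, Psmc1 and Psmf1, and in Psmc3 every digoxin array lies below every vehicle array.

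The large scaffold genes of the base, Psmd1 and Psmd2, stood at 0.12 and 0.036, and at 0.045 and 0.031 without vehicle 3. Psmd2, the lowest of the 3 scaffold and receptor genes, had digoxin values of -0.077, 0.00, 0.001, -0.018 and 0.084 and vehicle values of -0.076, 0.009 and -0.047, which overlapped, and its 95% interval was -0.071 to 0.14. Of the 8 lid genes, 7 had a higher mean in digoxin hearts, and vehicle 3 was the lowest array for 7. Without vehicle 3, 4 of the 8 were higher. Psmd8 had the lowest change of the lid, -0.021, with -0.15, 0.012, -0.093, -0.072 and 0.026 in digoxin and 0.00, 0.023 and -0.13 in vehicle hearts. Its groups overlapped, digoxin 1 was the lowest array, and the change was -0.068 without vehicle 3. Psmd7, which pairs with Psmd14 in the lid, stood at 0.24 (95% interval -0.002 to 0.48), and at 0.094 without vehicle 3. Psmd3 stood at 0.10, Psmd6 at 0.065, Psmd11 at 0.12, Psmd12 at 0.025 and Psmd13 at 0.038. Without vehicle 3 they stood at 0.002, -0.058, 0.057, -0.10 and -0.029, in the same order.

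Activators other than the regulatory particle were measured through Psme1 and Psme2, which encode the interferon-inducible PA28 ring, Psme3, which encodes the nuclear PA28 gamma, and Psme4, which encodes PA200. Psme1 gave -0.14, 0.00, 0.087, -0.20 and 0.045 in digoxin and 0.12, 0.006 and -0.26 in vehicle hearts, a change of 0.005 (95% interval -0.21 to 0.22), and of -0.10 without vehicle 3. Psme2 gave 0.12, 0.13, 0.076, -0.42 and 0.027 in digoxin and -0.24, -0.034 and 0.79 in vehicle hearts. Vehicle 3, at 0.79, and digoxin 4, at -0.42, were the extremes of Psme2 in opposite directions. Its change was -0.18 with all arrays, 0.12 without vehicle 3 and 0.23 without both arrays, so its direction rested on 1 array. Psme1 and Psme2 lie on chromosome 14 with Emc9 between them in the RefSeq annotation, and vehicle 3 was the lowest array for Psme1 and the highest for Psme2.

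Psme3 values were 0.11, 0.013, -0.076, -0.18 and 0.023 in digoxin and 0.055, 0.00 and -0.25 in vehicle hearts, a change of 0.043 (95% interval -0.15 to 0.24), which turned to -0.049 without vehicle 3. Psme4 values were 0.00, 0.017, -0.002, -0.21 and 0.10 in digoxin and -0.002, -0.22 and -0.42 in vehicle hearts, a change of 0.20 (95% interval -0.028 to 0.42), and 0.093 without vehicle 3. The groups overlapped in both genes. Psmf1 encodes PI31, a protein that binds the core and was first described as an inhibitor of it. Psmf1 stood at 0.045, 0.076, 0.18, 0.23 and 0.14 in digoxin and at -0.018, 0.10 and -0.28 in vehicle hearts. The change was 0.20 with an SE of 0.085 (95% interval 0.008 to 0.39, adjusted p = 0.382 in limma), and vehicle 2 lay within the digoxin range. Without vehicle 3 it was 0.094.

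Assembly factors are not part of the finished protease. Psmg1, Psmg2, Psmg3 and Psmg4 encode the chaperones that build the alpha ring, and Psmd5, Psmd9 and Psmd10 those that build the base. The core chaperones had a median change of 0.012, and Psmg2 was the highest of them, with 0.031, 0.049, -0.012, -0.078 and 0.051 in digoxin and 0.007, -0.002 and -0.23 in vehicle hearts. Its change was 0.085 (0.006 without vehicle 3), and its 2 probe sets differed, at 0.18 and -0.007. Psmg3 was the lowest, with 0.00, -0.10, 0.029, -0.025 and 0.006 in digoxin and -0.009, -0.14 and 0.35 in vehicle hearts, a change of -0.084, and of 0.057 without vehicle 3. Psmg1 stood at 0.065 and Psmg4 at -0.041, and both were lower without vehicle 3, at -0.077 and -0.072.

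All 3 base chaperones had a higher mean in digoxin hearts, with a median change of 0.15, and of 0.052 without vehicle 3. Psmd5 had digoxin values of 0.004, 0.065, 0.044, -0.009 and 0.042 and vehicle values of -0.11, 0.045 and -0.32, with vehicle 2 inside the digoxin range. Its change was 0.16 (95% interval -0.009 to 0.33), and 0.064 without vehicle 3. Psmd9 values were -0.032, 0.21, -0.015, 0.072 and 0.12 in digoxin and 0.00, 0.039 and -0.063 in vehicle hearts, a change of 0.08, and these groups overlapped. Psmd10, also known as gankyrin, stood at 0.15, and at 0.028 without vehicle 3. For all of these chaperones vehicle 3 was the lowest array.

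Promoter windows of 300 bases were found for 39 of the 47 genes in the RefSeq table, which holds windows of 27025 genes. Motifs were searched on both strands. The antioxidant response element core TGACNNNGC, which NRF1 and NRF2 bind, was in 6 members (15.4%) and in 14.0% of all genes, and the members were Psmb5, Psmb6, Psmc6, Psmd12, Psmd9 and Psme4. The CCAAT box was in 14 members (35.9%) and in 41.1% of all genes. GAAANNGAAA, the interferon-stimulated response element core, was in 5 members (12.8%) and in 3.99% of all genes, namely in Psmb3, Psmd4, Psmd9, Psme1 and Psmg4. The gamma-activated site TTCNNNGAA was in Psmb8, Psmd2 and Psmg1 (7.69%), and in 9.55% of all genes. No member window held the glucocorticoid response element GNACANNNTGTNC, which 0.537% of all genes hold. Median changes of the members with and without each motif were 0.053 and 0.063 for the antioxidant element, 0.13 and 0.036 for the CCAAT box, 0.005 and 0.064 for the interferon element, and 0.063 and 0.06 for the gamma-activated site, given with no test. In Psmd14, CCAAT matches on opposite strands overlap. A match is a description and not a binding site.

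Genes that act on the proteasome or control it gave few changes. In the list of pathway genes around NRF1, 1 of 13 measured genes passed, where 0.415% of all genes passed as lower and 0.947% as higher. The gene that passed was lower. This was Nfe2l2, which encodes NRF2, the relative of NRF1 that drives antioxidant genes. Nfe2l2 values were -0.19, -0.21, -0.014, -0.20 and -0.16 in digoxin and 0.36, 0.28 and 0.093 in vehicle hearts, and all digoxin hearts lay below all vehicle hearts. It fell by 0.40 on the log2 scale with an SE of 0.0712 (95% interval -0.56 to -0.24, adjusted p = 0.0357 in limma). The call was kept without digoxin 3 (adjusted p = 0.0381 in limma) or vehicle 3 (0.0106) and lost without any other single array, with the highest adjusted p, 0.121, without vehicle 2. Nfe2l1, the gene of NRF1, gave 0.076, 0.00, 0.040, -0.17 and -0.002 in digoxin and -0.034, 0.051 and 0.093 in vehicle hearts, which overlapped. None of the 11 measured partner genes passed. Midn, whose product midnolin brings nuclear proteins to the proteasome without ubiquitin, gave 0.20, 0.29, 0.42, 0.25 and 0.35 in digoxin and 0.011, 0.13 and -0.025 in vehicle hearts, with all digoxin hearts above all vehicle hearts. Its change was 0.26 (95% interval 0.12 to 0.40, adjusted p = 0.1 in limma). Such a separation with digoxin higher was seen in 4.4% of all genes. Zfand5, whose product stimulates the proteasome in atrophying muscle, had a 95% interval of -0.006 to 0.28 and an adjusted p of 0.431 in limma.

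None of the 7 measured genes of ubiquitin supply and shuttling passed, and the smallest adjusted p values in limma were those of the shuttle genes Ubqln1 (0.503) and Ubqln2 (0.615). In the list of MHC class I antigen processing, for which the immunoproteasome makes peptides, none of 10 measured genes passed. Irf1, which encodes the interferon factor known to drive Psmb9 and Tap1, gave -0.26, -0.057, -0.20, -0.032 and -0.034 in digoxin and 0.12, 0.11 and 0.077 in vehicle hearts, with no overlap (adjusted p = 0.18 in limma). Tapbp, which encodes tapasin, also had no overlap, with digoxin lower (adjusted p = 0.232 in limma). Among all genes, 3.76% had no overlap with digoxin lower. On digoxin 4 the list mean was 0.24, against -0.19 to 0.11 on the other arrays. There 5 of the 10 genes were highest, as were 11.6% of all genes. None of 13 measured interferon response genes passed with all arrays, and 3 passed as lower without vehicle 3, where 189 of all 22180 genes did. In that list 12 means were lower in digoxin hearts, as were 12328 of 22180 over all genes. The median change was -0.20 beside -0.011 over all genes, and it was -0.19 without vehicle 3. With all arrays Isg15 had the smallest adjusted p (0.0698 in limma), followed by Oasl2 (0.0988). The 3 genes past the threshold without vehicle 3 were Gbp3 (-0.48, adjusted p = 0.00733 in limma), Oasl2 (-0.60, 0.0132) and Irf9 (-0.39, 0.0178). With all arrays their changes were -0.21 (adjusted p = 0.647 in limma), -0.46 (0.0988) and -0.086 (0.891), in the same order. On vehicle 3 itself Gbp3 stood at -0.43 and Irf9 at -0.66, below every digoxin array. Oasl2 stood there at 0.07, above every digoxin array.

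Among the lists of cell type markers, none of the measured genes passed with all arrays. Without vehicle 3 the fibroblast gene Tcf21 passed as lower (-0.54, adjusted p = 0.0232 in limma), where 189 of all 22180 genes did. Of the 5 fibroblast genes in that fit, 4 had a lower mean and 1 a higher one. With all arrays, the 8 cardiomyocyte genes had a median change of 0.009. The 5 atrial cardiomyocyte genes varied most, with list means from -0.54 to 2.72 across the arrays, highest on vehicle 1 and lowest on digoxin 5, and all 5 had lower means in digoxin hearts. Their median change, -1.3 (-1.55 without vehicle 3), was the largest of the marker lists, and the lowest adjusted p among them was 0.581 in limma. The other median changes were 0.058 for 5 endothelial genes, -0.11 for 5 fibroblast genes, 0.059 for 9 leukocyte genes and 0.15 for 4 smooth muscle and pericyte genes, and the 1 measured erythroid gene of 4, Slc4a1, stood at -0.21. The part of such differences in the proteasome values was not tested.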

How the data were processed

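Heart RNA was read on 8 Affymetrix Mouse Gene 2.0 ST arrays, 5 digoxin and 3 vehicle. Per the series design text, the authors normalised the arrays with Robust Multi-array Average in the GIANT tool suite, and the submitters' processing notes name limma, without a version. The log2 values deposited by the authors are centred per probe set. What the centre refers to and the log base are not stated; the base is taken as that of the normalization. Their genome build was not given in the sources used here.

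Of 34351 probe sets, 23521 had 1 gene symbol in the platform annotation, 1814 several and 9016 none. Those with 1 were averaged per gene (22180 genes). All genes were fitted in R 4.3.3 with lmFit and eBayes of limma 3.58.1 (two-sided, Benjamini-Hochberg over all genes, threshold 0.05, no covariate, 6 residual and 2.75 prior degrees of freedom). The fit was tested on simulated data. Fold and interval values come from this fit, and the SD is between arrays. The number of arrays limits the precision. The 3 subunit pairs were tested by exact permutation over 56 assignments. Promoter windows came from RefSeq (GRCm38.p6), and protein sequences were not used here.

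The members, the gene lists and the tests were chosen with earlier results of these data known. Values on every array are given for the catalytic subunits, the activators, PI31, Psmd14, Psmd4 and the highest and lowest member of each of 12 subgroups (27 genes); of each pathway list, genes past the test are named, or else the 2 of smallest p. Nfe2l1, Emc9, Gbp3, Irf9 and the marker genes were named outside this rule, after their values were seen. The thymus and T cell lists were added after the data were seen. Same-numbered arrays did not deviate together (correlations of -0.197, -0.018 and 0.024), and titles and descriptions number the arrays differently, so the numbers were not used as pairs. A filter on low values was not run, since centred values hold no level.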

Additional observations from a re-analysis of the deposited data

Results flagged for a closer look

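Among the proteasome genes and the differences between paired subunits, 50 sets of 5 digoxin values were examined for a single value far from the others. Of these, 6 had one. Chance gives about 5% of independent sets, but these sets share arrays, and the share over all genes was not worked out. The count is therefore not read as an excess. Of the 6, 5 concerned digoxin 4, whose interquartile range (0.115) was the widest of the digoxin arrays. The flags of Psmb9 and of Psmb9 minus Psmb6 hold the same Psmb9 value. On that array Psmb9, the inducible subunit gene, stood at 0.34 with the other digoxin hearts between -0.18 and -0.045, and Psmb8 stood at 0.18 with the others between -0.041 and 0.002. The difference Psmb9 minus Psmb6 was 0.38 there and between -0.20 and -0.045 in the others. The lid gene Psmd12 was at -0.18 with the others between -0.006 and 0.054, and the PA28 gene Psme2 was at -0.42 with the others between 0.027 and 0.13. The remaining value was on digoxin 5, where the testis subunit gene Psma8 stood at 0.34 with the others between -0.089 and 0.014. Most of the listed T cell and thymus genes were also highest on digoxin 4, and their part in these values was not tested. Groups of 3 vehicle arrays are too small for this examination, so vehicle 3 was not examined in this way.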

How the results depend on the processing

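No proteasome gene passed at 0.05 in any of the 17 other fits run, and none passed a threshold of 0.1 in the fit reported. The lowest adjusted p of a member in limma was 0.0594 (Psmd14, without vehicle 2), and values below 0.1 were also reached by Psmd4 with quantile normalization (0.0971), by Psmc3 with array weights (0.0991), and by Psmb9 without digoxin 4 (0.0943) or without it and vehicle 3 (0.0983). Over all genes, 210 were higher and 92 lower. Quantile normalization gave 319 higher, array weights 320 lower, and leaving out digoxin 4 and vehicle 3 together 282 lower. At a threshold of 0.1 there were 327 higher and 166 lower, and with 1 array left out 123 to 185 higher and 29 to 189 lower. With the replicate number as a replicate block, 11 genes were higher and 1 lower, and no proteasome gene passed; the numbers are not known to pair the arrays, and Nfe2l2 had an adjusted p of 0.48 in that limma fit. The median change of the core genes lay between -0.007 and 0.066 with 1 array left out (0.066 without vehicle 2). That of the immunoproteasome genes lay between -0.14 and 0.14, and was -0.16 with array weights and -0.15 without digoxin 4 and vehicle 3. Psmb9 minus Psmb6 differed between the groups by -0.16 to -0.01 with 1 array left out. Psmb10 minus Psmb7 differed by 0.00 with all arrays, by -0.093 with quantile normalization, by -0.22 without digoxin 4 and vehicle 3, and by -0.17 to 0.094 with 1 array left out. Of 457 values of the 27 named members under these fits, 4 moved by more than the SD between arrays: Psme2 (0.23) and Psmf1 (0.069) without both arrays, and Psma5 (-0.19) and Psmg2 (0.18) by single probe sets. The cause of these shifts was not tested. The 3 vehicle arrays limit the precision to the intervals given, and signal over background cannot be read from centred values. The filter on low values was not run.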

Other observations

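Probe sets that carry a proteasome symbol together with another gene's symbol were left out of the values above. Both probe sets shared by Psma4 and AY074887 differed little between the groups, at 0.06 and -0.035 (digoxin minus vehicle mean, log2). The probe set shared by Armc9 and Psmd1 stood at 0.045, and that shared by Psme2 and the interferon-inducible GTPase genes 9930111J21Rik1 and 9930111J21Rik2 at -0.061. Which of the genes these probe sets read was not tested.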
